A study of Mus musculus with 14 samples.

Results

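Complex I of the mitochondrial respiratory chain was followed in mouse hearts through the 46 protein-coding genes whose GENCODE M21 symbol begins with Nduf. They were matched by Ensembl identifier to the 54532 identifiers of the count tables, and pseudogenes were left out. Among them, 5 encode subunits that bind iron-sulphur (Fe-S) clusters, namely Ndufs1, Ndufs7, Ndufs8, Ndufv1 and Ndufv2. Another 33 were counted by symbol as other subunits, Ndufa4 and Ndufa4l2 among them, and 8 encode the assembly factors Ndufaf1 to Ndufaf8. By position in the complex, 16 subunits belong to the matrix arm and 19 to the membrane arm, and 11 genes were placed in neither.

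The study compared hearts of mouse models of Friedreich ataxia, a recessive disease with cardiomyopathy. There were 4 libraries labelled WT and 4 labelled YG8-800, which formed 1 experiment, and 3 female and 3 male KIKO-700 libraries from another cohort, 14 in all. YG8-800 mice are homozygous for a constitutive null allele of the disease gene, made by loss of an exon, and hemizygous for a human transgene of it with a long GAA repeat in its first intron; their WT mice are littermates. KIKO-700 mice carry a long GAA repeat in the first intron of one allele and a deletion in the other. All mice were C57BL/6 and are labelled as postnatal day 180, whereas the study describes older animals, and each library was made from the heart of a separate animal. No WT heart of the KIKO-700 cohort was analysed here, so only the sexes could be compared within it. The disease gene was at 2.75 to 6.42 CPM (counts scaled to the library's total) in the libraries labelled WT. It was higher, at 14.3 to 27.2 CPM, in those labelled YG8-800, beside 17.2 to 24.5 CPM in KIKO-700. The libraries read the 3′ end of a transcript, and where these reads lie relative to the lost exon was not examined. They were therefore not used to check the genotype. Whether the labels YG8-800 and WT stand for the genotypes, or were exchanged, was not settled here, and every direction below is that of the labelled libraries.

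Complex I takes electrons from NADH and passes them to ubiquinone while it pumps protons across the inner mitochondrial membrane. Its matrix arm holds a flavin and a chain of Fe-S clusters, which the membrane arm, where the pumping takes place, lacks. The remaining nuclear subunits surround this core, and assembly factors join the modules but leave the finished enzyme. The heart is among the tissues richest in complex I. As the disease protein acts in the making of Fe-S clusters, the Fe-S subunits are set apart from the rest here.

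The promoters of 5 members on which the results turn are shown with the bases searched for 4 sites known from genes of the respiratory chain. Each runs 5′ to 3′ from 250 bases before the transcription start to 30 bases after it, in RefSeq's windows on GRCm38.p6. Capitals mark matches on either strand. The letters searched were GCGCATGC (core of the NRF1 site), CCGGAAG (ETS site, as of GABP), AAGGTCA (part of the ERR site) and AAGATGG (core of the YY1 site). Ndufv2 and Ndufab1 are shown because they had the smallest p-values, Ndufs8 because it varied most among the Fe-S subunits, and Ndufaf4 and Ndufaf8 because they were the most abundant assembly factors.
Ndufv2 promoter, chr17:66101530-66101809, minus strand: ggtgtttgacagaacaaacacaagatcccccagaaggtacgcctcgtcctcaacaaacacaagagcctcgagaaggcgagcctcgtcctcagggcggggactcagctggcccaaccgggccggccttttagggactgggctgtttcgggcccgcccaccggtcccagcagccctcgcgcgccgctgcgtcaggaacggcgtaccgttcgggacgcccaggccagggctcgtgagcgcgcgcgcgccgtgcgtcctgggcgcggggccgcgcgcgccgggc
Ndufab1 promoter, chr7:122101819-122102098, minus strand: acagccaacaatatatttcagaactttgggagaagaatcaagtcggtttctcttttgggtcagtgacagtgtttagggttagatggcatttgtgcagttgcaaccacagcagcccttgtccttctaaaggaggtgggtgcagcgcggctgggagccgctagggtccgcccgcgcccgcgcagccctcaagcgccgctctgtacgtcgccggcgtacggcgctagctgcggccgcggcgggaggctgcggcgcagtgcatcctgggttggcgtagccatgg
Ndufs8 promoter, chr19:3912745-3913024, minus strand: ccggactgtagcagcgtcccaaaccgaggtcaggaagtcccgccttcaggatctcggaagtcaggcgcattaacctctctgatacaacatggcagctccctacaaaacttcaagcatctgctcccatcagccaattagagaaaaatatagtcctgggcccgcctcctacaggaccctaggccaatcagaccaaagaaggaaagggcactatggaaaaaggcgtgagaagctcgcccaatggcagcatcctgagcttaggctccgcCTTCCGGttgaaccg
Ndufaf4 promoter, chr4:24897833-24898112, plus strand: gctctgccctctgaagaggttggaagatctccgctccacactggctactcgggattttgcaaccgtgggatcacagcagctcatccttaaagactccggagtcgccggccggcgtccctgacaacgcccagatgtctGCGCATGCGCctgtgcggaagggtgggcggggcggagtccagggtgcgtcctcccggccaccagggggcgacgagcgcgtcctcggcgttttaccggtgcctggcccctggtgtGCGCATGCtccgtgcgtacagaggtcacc
Ndufaf8 promoter, chr11:120098684-120098963, plus strand: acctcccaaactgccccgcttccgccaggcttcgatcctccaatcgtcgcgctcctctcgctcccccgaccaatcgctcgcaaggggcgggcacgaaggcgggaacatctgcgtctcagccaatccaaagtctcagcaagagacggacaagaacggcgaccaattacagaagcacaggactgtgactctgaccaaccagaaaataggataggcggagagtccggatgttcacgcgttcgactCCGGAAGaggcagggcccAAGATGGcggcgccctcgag
Windows of 300 bases were given for 40 of the 46 members, 42 windows in all, out of 32851 windows of all genes. The NRF1 core was present in 5 of 42 member windows (11.9%) and in 2.71% of all windows. The ETS site was present in 6 (14.3%, against 8.86%), the part of the ERR site in 3 (7.1%, against 4.72%) and the YY1 core in 8 (19.0%, against 6.34%). At least 1 of these 4 sites was present in 21 of 42 member windows and in 6806 of the 32851 windows of all genes. The other 21 member windows held none, those of Ndufv2 and Ndufab1 included. In Ndufaf4, matches on both strands overlap in the upstream run of capitals. In the GENCODE M21 annotation of GRCm38, Ndufv2 spans chr17:66078638-66101559, Ndufab1 chr7:122085403-122101886, Ndufs8 chr19:3908863-3912774 and Ndufa1 chrX:37187588-37191163, all on the minus strand, and Ndufb5 spans chr3:32736990-32751566 on the plus strand.

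In these libraries a read comes from the 3′ end of a transcript, so counts carry no factor for transcript length, and levels of different genes are compared as CPM, the counts divided by the library's total and put on a common scale. CPM were scaled within each experiment by the trimmed mean of M-values (TMM), and levels of the 2 experiments are therefore given side by side without a test. Over the 14 libraries, mean levels of subunits ran from 2.81 to 1192 CPM with a median of 297, and those of assembly factors from 8.39 to 87.4 CPM with a median of 16.3. Of 38 subunits, 37 had a mean above that of every assembly factor. Ndufa4l2, counted as a subunit by its symbol alone, was the exception.

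The most abundant members were Ndufa5, a small subunit of the matrix arm, Ndufv3, an accessory subunit at the NADH-binding tip, and Ndufb8, a subunit of the membrane arm. Ndufa5 lay between 692 and 1073 CPM in WT, between 841 and 1170 CPM in YG8-800, and between 1348 and 1687 CPM in KIKO-700 hearts. Ndufb8 lay between 557 and 1219 CPM over the 14 libraries. The least abundant subunits were Ndufa4l2, Ndufs3 and Ndufs5, with means of 2.81, 123 and 133 CPM. Ndufa4l2 is the hypoxia-induced relative of Ndufa4, and it ranged from 0.863 to 6.66 CPM. Ndufa4, which is now assigned to cytochrome c oxidase, ranged from 124 to 816 CPM.

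Among assembly factors, the highest means were those of Ndufaf8 with 87.4 CPM, Ndufaf4 with 51.1 CPM and Ndufaf3 with 24.3 CPM. The lowest were those of Ndufaf5, a hydroxylase of Ndufs7, with 12.2 CPM, of Ndufaf6 with 11.2 CPM and of Ndufaf7, a methyltransferase, with 8.39 CPM. Ndufaf4, which acts in the building of the matrix arm, was the steadiest of the named factors in the first experiment, with 66.5, 60.9, 73.3 and 64.2 CPM in WT 1 to WT 4 and 55.3, 62.7, 60.3 and 62.9 CPM in YG8-800 1 to YG8-800 4. Its range in KIKO-700 hearts was 29.97 to 37.2 CPM.

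**Figure D1:**
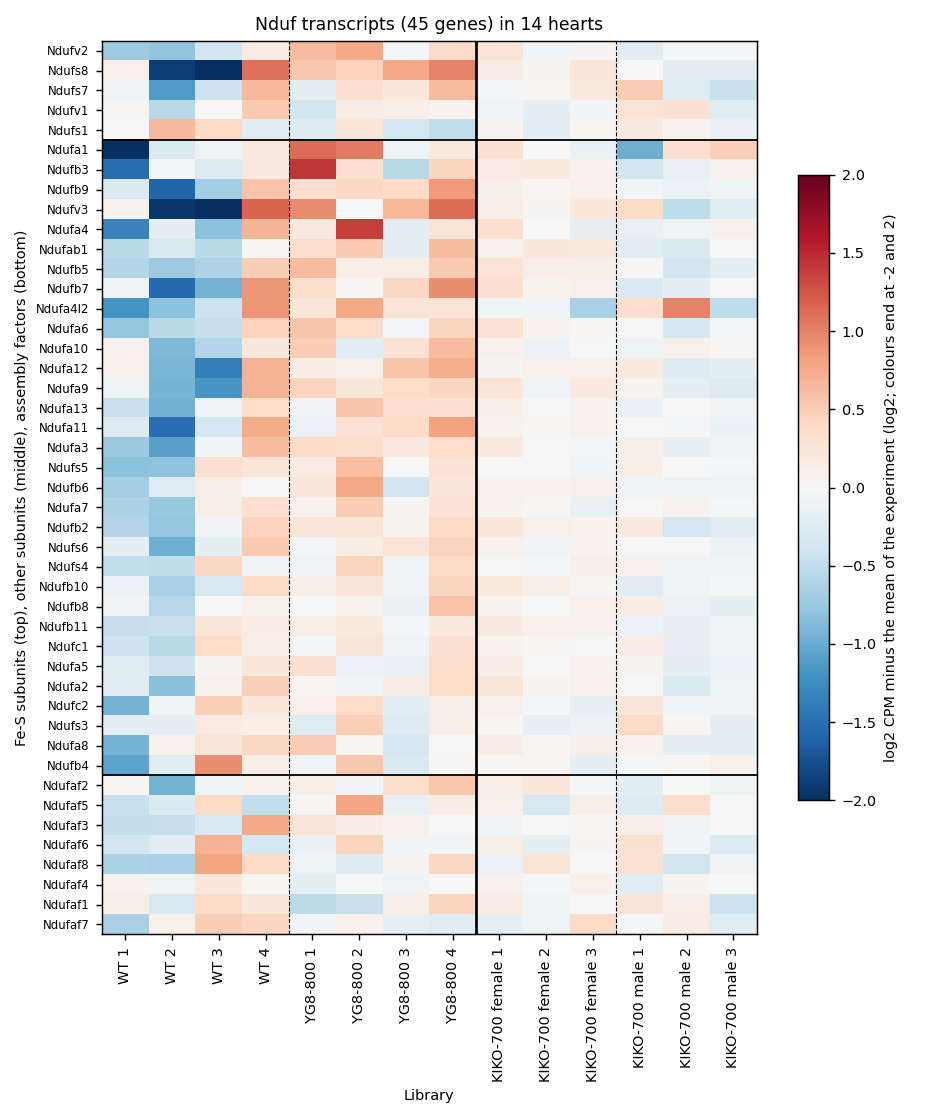
Level of 45 of the 46 Nduf genes (rows; 1 is not drawn) in each of the 14 libraries (columns), as log2 CPM minus the gene's mean over its experiment (8 or 6 libraries). Rows are Fe-S subunits, other subunits and assembly factors from top to bottom; the 4 WT columns differ among themselves by more than the 6 KIKO-700 columns, and Ndufs8 and Ndufv3 are lowest in WT 2 and WT 3.

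The libraries held between 5226233 and 11650840 counts, of which Nduf genes made up 1.08% to 1.94%. The WT libraries stood apart from each other. Summed over the 38 subunits, levels were 10200 CPM in WT 1, 8403 in WT 2, 11840 in WT 3 and 17600 in WT 4, against 14110 to 18170 CPM in YG8-800, 15530 to 16750 CPM in female KIKO-700 and 13790 to 16000 CPM in male KIKO-700. WT 1 was the lowest of 8 libraries for 14 members and WT 2 for 22, and WT 4 was the highest for 11. The 8 assembly factors summed to 174 to 299 CPM in WT and 211 to 261 CPM in YG8-800. Xist exceeded the Y-linked genes in 3 of 4 WT and 2 of 4 YG8-800 libraries, whereas the study describes males; the KIKO-700 libraries matched their labelled sex in 6 of 6. All markers of ventricular cardiomyocytes were detected in each group. Their summed level was 12540 and 14630 CPM in WT 2 and WT 3 against 19230 to 31790 CPM in the other 6 libraries of that experiment. Of these markers only Actc1 did not follow, at 6740 and 7360 CPM in WT 2 and WT 3 against 4768 to 11340 CPM.

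The first question was whether Nduf transcripts differed between hearts labelled YG8-800 and WT. More subunits were higher than lower in YG8-800, but no member passed an adjusted p of 0.05. Ndufv2, Ndufab1 and Ndufa1 were higher at an unadjusted p under 0.05, and no member was lower. Fold changes of the assembly factors were spread on both sides of 0.

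In the quasi-likelihood test of edgeR with Benjamini-Hochberg adjustment, 0 of 11875 genes (0%) and 0 of 46 members passed an adjusted p of 0.05. At an unadjusted p under 0.05, 718 genes passed, 3.04% of the genes tested being higher and 3.01% lower (361 and 357). Of the 46 members, 3 (6.52%) were higher and 0 lower. Scaled by library size alone, the median of all genes was -0.21 and the counts were 171 higher and 675 lower. The members' median was then 0.29, with 2 members (4.35%) higher and 0 lower. DESeq2 passed 7 genes and 0 members after adjustment, and 6 members, all higher, without it (13.0%, against 3.58% of all genes higher). Of all genes, 1.52% were higher and 2.15% lower in YG8-800 without overlap of the groups; 0 members were in either class. Fold changes were above 0 for 39 of 46 members, with a median of 0.41 on the log2 scale, whereas the median of all genes was -0.006. Members' standard errors ran from 0.21 to 0.67, and the SD of the members' median between replicates was 0.32.

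Ndufv2, one of the Fe-S subunits at the NADH-binding tip, had the smallest unadjusted p. It was at 237, 224, 297 and 429.9 CPM in WT 1 to WT 4 and at 597, 652, 375 and 505 CPM in YG8-800 1 to YG8-800 4. All YG8-800 values except that of YG8-800 3 lay above the highest WT value. Its log2 fold change was 0.84 ± 0.29 (SE, n = 4 and 4; edgeR, unadjusted p = 0.0118, adjusted p = 0.786). It stayed under the unadjusted threshold when any single library was left out, and missed it (edgeR, unadjusted p = 0.0709) when WT 2 and WT 3 were left out together.

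The other Fe-S subunits did not pass the unadjusted threshold. Ndufs8, which carries clusters near the ubiquinone site, was at 122, 31.1, 27.3 and 246 CPM in WT and at 166, 157, 194 and 226 CPM in YG8-800. WT 2 and WT 3 lay far below the other 6 libraries, and WT 4 lay above all of them. Its log2 fold change was 0.80 ± 0.64, with an edgeR adjusted p of 0.886, and it was 0.011 with WT 2 and WT 3 left out. Without WT 4 it was 1.62 (edgeR, unadjusted p = 0.00618), and it was 1.36 both with limma-voom (unadjusted p = 0.0319) and in edgeR blocked by replicate number (unadjusted p = 0.0277).

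Ndufs7, which holds the last cluster before ubiquinone, was at 204, 98.4, 161 and 335 CPM in WT and at 188, 271, 249 and 329 CPM in YG8-800. Ndufv1, which binds NADH and the flavin, was at 291, 194, 289 and 412 CPM in WT and at 222, 316, 314 and 302 CPM in YG8-800. Both sets of groups overlapped widely, with log2 fold changes of 0.38 ± 0.34 and -0.039 ± 0.28. Ndufs1, the largest subunit of the matrix arm, went the other way, at 262, 409, 338 and 225 CPM in WT and at 218, 308, 204 and 185 CPM in YG8-800. Its log2 fold change was -0.43 ± 0.28 (edgeR, adjusted p = 0.852), and WT 2 and WT 3 were its highest libraries. Fold changes of 3 of the 5 Fe-S subunits were above 0, with a median of 0.38, and those of 5873 of all 11875 genes were. With these standard errors, whether the 5 share a direction cannot be told.

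**Figure D2:**
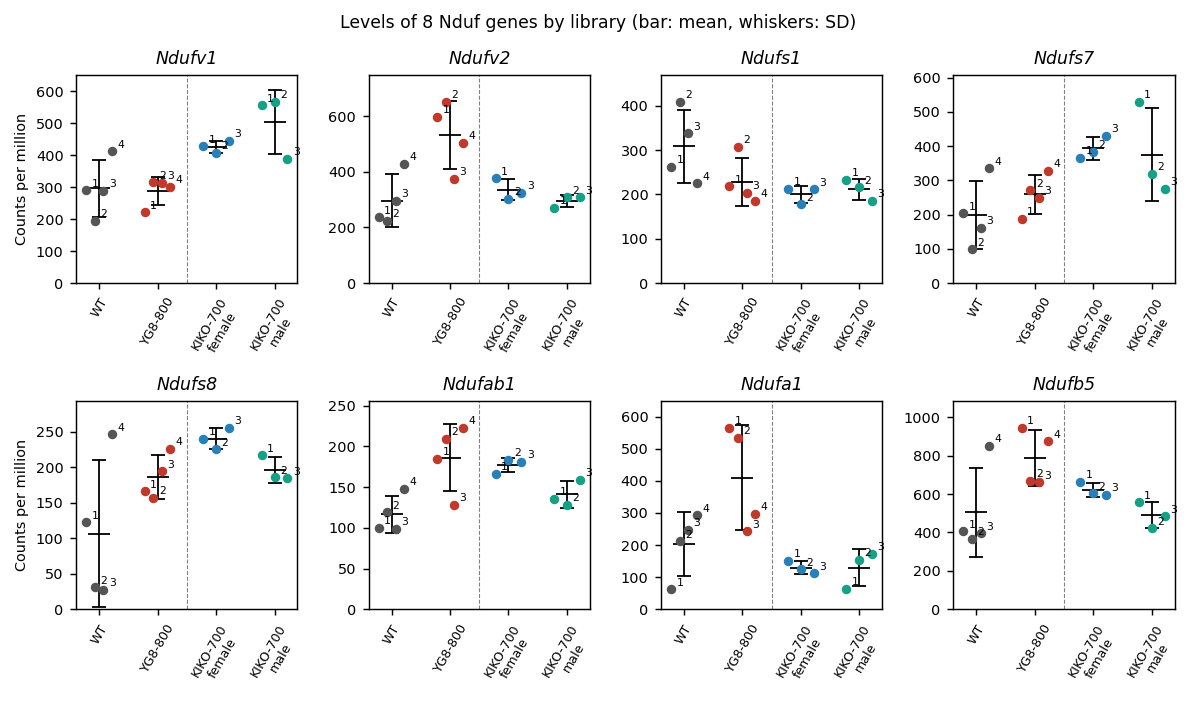
CPM (y axis, from 0) of the 5 Fe-S subunits and of Ndufab1, Ndufa1 and Ndufb5 in each library, numbered by replicate, with the mean and SD of each group; the dashed line separates the experiments, which were scaled apart. Ndufs8 is at 31.1 and 27.3 CPM in WT 2 and WT 3, and Ndufv2 lies above the highest WT value in 3 of 4 YG8-800 hearts.

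Of the 33 other subunits, 32 had a fold change above 0 and their median was 0.47. Ndufab1, the mitochondrial acyl carrier protein, which also serves fatty acid synthesis and Fe-S cluster assembly, was at 100.1, 119, 99.1 and 148 CPM in WT and at 185, 209, 128 and 222 CPM in YG8-800. Only YG8-800 3 fell within the range of the WT hearts. The log2 fold change was 0.68 ± 0.26 (edgeR, unadjusted p = 0.0211, adjusted p = 0.787). Reads at processed pseudogenes that resemble Ndufab1 came to 74.3% of its own count, and with these added to it the log2 fold change was 1.09. The edgeR unadjusted p rose to 0.0522 without WT 3, 0.0510 without YG8-800 2, 0.0700 without YG8-800 4, 0.0875 without both WT 2 and WT 3, and 0.109 with scaling by library size alone.

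Ndufa1, a small subunit of the membrane arm encoded on chromosome X, was at 62.7, 212, 247 and 293 CPM in WT and at 564, 533, 243 and 298 CPM in YG8-800. YG8-800 1 and YG8-800 2 were near to each other and far above the other hearts, while WT 1 was the lowest. The log2 fold change was 1.01 ± 0.43 (edgeR, unadjusted p = 0.0343, adjusted p = 0.812), and leaving out any of 4 libraries raised it above the threshold, with an unadjusted p of 0.0506 for WT 1, 0.0599 for WT 2, 0.100 for YG8-800 1 and 0.0950 for YG8-800 2. Leaving out WT 2 together with WT 3 gave 0.0587. It was 0.0617 with the Xist level as a covariate and 0.0772 with the replicate block. Ndufb11, the other member on chromosome X, had a log2 fold change of 0.22 ± 0.26, with 281 to 459.6 CPM in WT and 382 to 445 CPM in YG8-800.

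Ndufv3 followed the libraries of Ndufs8, at 589, 145, 139 and 1261 CPM in WT and at 1077, 559, 892 and 1212 CPM in YG8-800, with a log2 fold change of 0.81 ± 0.67. Ndufb5 of the membrane arm was at 405, 368, 396 and 849.5 CPM in WT and at 944, 668, 662 and 876 CPM in YG8-800. For both genes WT 4 lay within the range of the YG8-800 hearts or above it. Ndufb5 had a log2 fold change of 0.64 ± 0.32 and an edgeR unadjusted p of 0.0620. Without WT 4 these were 1.02 and 0.00171, and the unadjusted p lay between 0.0186 and 0.0484 with 6 other choices, namely DESeq2, limma-voom, the replicate block, GC content smoothed out, no filter and a minimum of 10 counts per library. Ndufa4 was at 124, 274, 176 and 498 CPM in WT and at 353, 816, 276 and 372 CPM in YG8-800, with a log2 fold change of 0.76 ± 0.44.

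The assembly factors had a median log2 fold change of 0.008, and 4 of 8 were above 0. They ran from -0.23 ± 0.29 for Ndufaf7 to 0.44, and none passed the unadjusted threshold. Ndufaf8 was at 45.3, 44.9, 122 and 92.1 CPM in WT and at 66.1, 58.7, 73.3 and 94.4 CPM in YG8-800, so the WT hearts spanned the range of the YG8-800 hearts. Ndufaf5 and Ndufaf3 had log2 fold changes of 0.42 ± 0.29 and 0.16 ± 0.30. Assembly genes that do not carry the Nduf name, among them Acad9, Ecsit and Timmdc1, had a median of 0.07, with 6 of 10 above 0 and 0 passing.

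The matrix and membrane arms had medians of 0.39 and 0.44 on the log2 scale, with 14 of 16 and 18 of 19 genes above 0. The nuclear subunits of the other complexes also lay mostly above 0: 9 of 9 genes of complex III, 13 of 16 tested genes of complex IV and 18 of 18 of ATP synthase had fold changes above 0, with medians of 0.44, 0.37 and 0.35. Of these genes 1, Atp5j of ATP synthase with a log2 fold change of 1.09, passed the unadjusted threshold. Differences between these lists were not tested. The 7 complex I subunits encoded by mitochondrial DNA had a median of 0.21, with 6 above 0 and 0 passing.

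How far these values rest on single WT hearts was measured by leaving libraries out. Without WT 4, 24 of 46 members were higher at an unadjusted p under 0.05, among them 3 of 5 Fe-S subunits, 20 of 33 other subunits and 1 of 8 assembly factors, and the members' median was 0.61. Of all genes 8.90% were then higher and 4.91% lower without adjustment. No member passed after adjustment, whereas 146 of all genes did (1.19%). Without WT 2 alone, the median was 0.25. Without WT 2 and WT 3, 0 members and 713 of 12579 genes passed the unadjusted threshold, and the members' median was 0.19, with 36 of 46 above 0. The groups then did not overlap in 2 members that were higher (4.35%, against 6.47% of all genes) and in 1 that was lower (2.17%, against 8.01%). With the Xist level as a covariate, which stands for the sex of the hearts, 2 members passed (4.35%, against 3.24% of all genes higher and 2.79% lower) and the median was 0.31. Adipocyte markers also differed between the hearts, at 87.8 and 95.5 CPM in WT 1 and WT 2, 1.91 and 27.6 CPM in WT 3 and WT 4, and 6.20 to 14.9 CPM in YG8-800; their part in the members' values was not tested. In whole hearts, fewer cells of a type and less RNA per cell cannot be told apart.

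**Figure D3:**
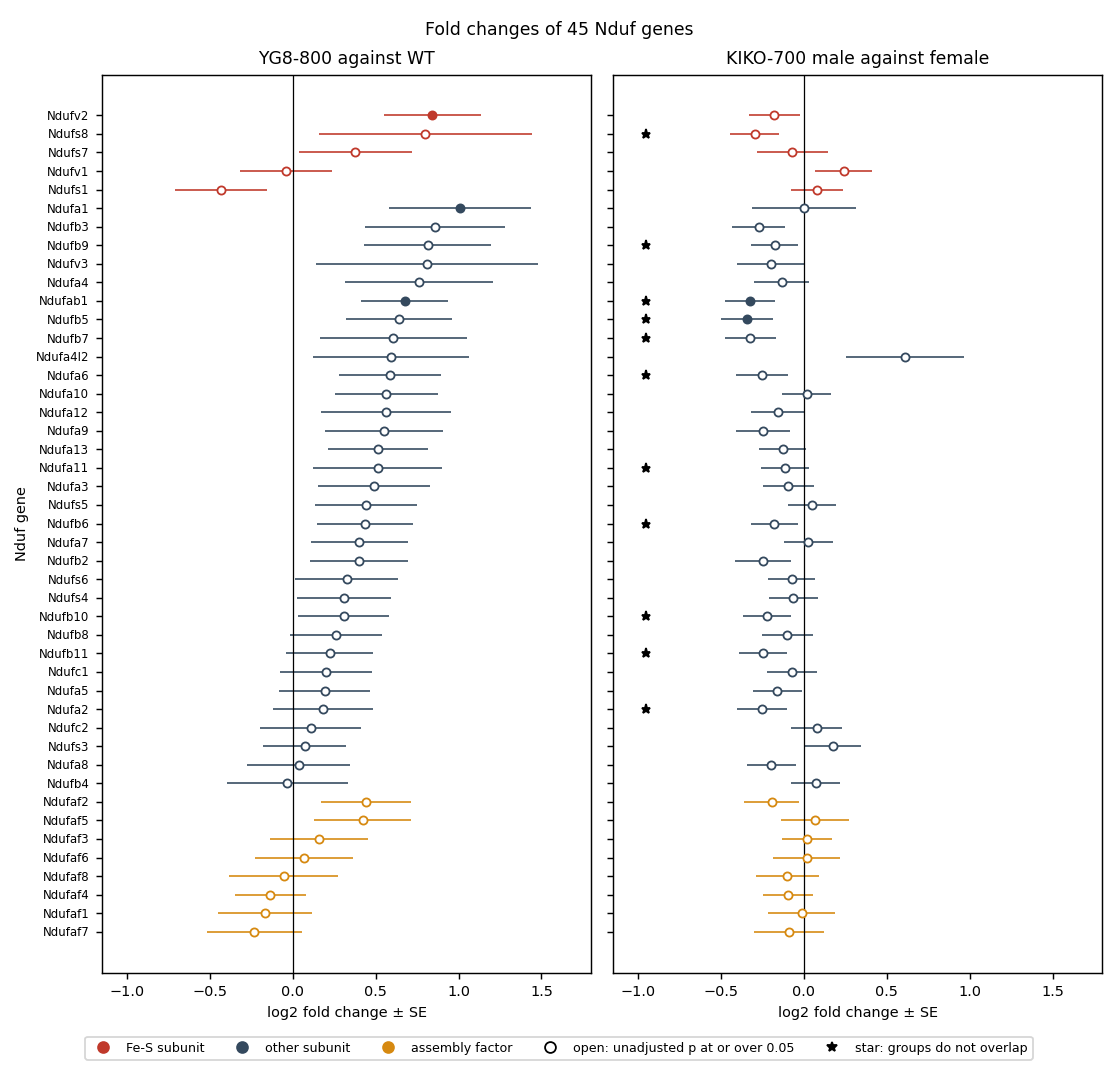
Log2 fold change with its SE (x axis) of 45 of the 46 Nduf genes (y axis; 1 is not drawn) for YG8-800 against WT (left) and KIKO-700 male against female (right), by class of gene; filled points have an unadjusted p under 0.05, and a star marks groups that do not overlap. On the left 38 of 45 points lie above 0 and 3 are filled; on the right 32 lie below 0, 2 are filled and 11 carry a star.

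WT 2 and WT 3 departed together from WT 1 and WT 4, a pair chosen after the data were seen and therefore only described. In 13 of 46 members (28.3%), 2 of them Fe-S subunits, both libraries lay below all other 6 libraries of the experiment, as they did in 12.2% of all genes tested. In 1 member, Ndufs1, both lay above all others, as they did in 7.09% of genes. The mean of WT 1 and WT 4 exceeded that of WT 2 and WT 3 by 6.51-fold in Ndufv3 and 6.31-fold in Ndufs8. The next members, chosen after their values were seen, were Ndufb7, Ndufa12, Ndufa9 and Ndufb9, with log2 differences of -1.69, -1.54, -1.41 and -1.29.

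Ndufb7 of the membrane arm was at 164, 59.7, 91.5 and 325 CPM in WT, against 179.8 to 336 CPM in YG8-800 hearts. Ndufa12, a subunit of the matrix arm, was at 391.6, 196, 143 and 597 CPM in WT, against 397 to 611 CPM in YG8-800 hearts. Ndufb4, also named after its values were seen, was at 138, 248, 544 and 314 CPM in WT. Its mean over WT 2 and WT 3 exceeded that over WT 1 and WT 4 (log2 difference 0.81) through WT 3 alone. The difference between these pairs of WT libraries moved with the GC content of the last 300 bases of the transcript: Spearman's rho was -0.49 across the 46 members and -0.54 across 11868 genes. Genes of 1 library are not independent, so these are descriptions. The GC content was 57.7% in Ndufv3 and 54.3% in Ndufs8, and 36.3% in Ndufs1. Ndufb4 went against this trend, with a GC content of 58.3%. With GC content smoothed out of each library, 6 members were higher at an unadjusted p under 0.05 (13.0%, against 4.27% of all genes) and the median was 0.41.

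**Figure D4:**
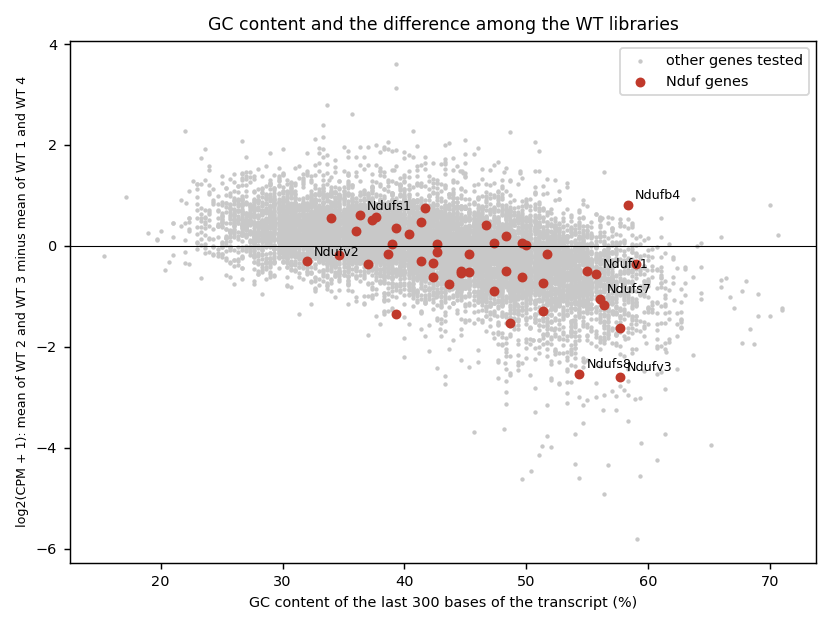
Mean log2(CPM + 1) of WT 2 and WT 3 minus that of WT 1 and WT 4 (y axis) against the GC content of the last 300 bases of the transcript (x axis, %), with 46 Nduf genes in red among 11868 genes. Points fall from left to right (Spearman's rho -0.54 over all genes), and Ndufs8 and Ndufv3 lie lowest among the Nduf genes.

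The second question was whether Nduf transcripts differed between KIKO-700 males and females. Most members had lower values in males, by small amounts, and none passed an adjusted p of 0.05. Ndufb5 and Ndufab1 were lower at an unadjusted p under 0.05. In 11 members every male lay below every female, and in none was it the other way round.

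Of 11801 genes tested with edgeR, 8 (0.0678%) passed an adjusted p of 0.05, and 0 of 46 members did. Without adjustment 3.39% of all genes were higher and 3.75% lower in males, against 0 and 2 (4.35%) of the members. DESeq2 passed 1 member without adjustment, lower in males (2.17%, against 2.26% of all genes lower), and 0 with it. Groups did not overlap in 5.52% of all genes, higher in males, and in 7.13%, lower in males. The members' counts were 0 and 11 (23.9%). Of the 46 fold changes, 33 were below 0, with a median of -0.11 on the log2 scale against 0.006 over all genes, and the SD of the members' median between replicates was 0.055. Standard errors ran from 0.14 to 0.36, below those of the first experiment in the median (0.15 against 0.30).

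Ndufb5 was at 664, 604 and 595 CPM in females and at 558, 423 and 485 CPM in males. Ndufab1 was at 167, 183 and 181 CPM in females and at 135, 128 and 159 CPM in males. In both genes the lowest female exceeded the highest male, by a margin smaller than the range within either sex. Their log2 fold changes were -0.35 ± 0.16 and -0.33 ± 0.15 (n = 3 and 3; edgeR, unadjusted p = 0.0452 and 0.0493, adjusted p = 0.683 and 0.697). Scaling by RLE, or by library size alone, took both above the unadjusted threshold, as did the replicate block and leaving out any female or male 2. In each of these fits 0 members passed, beside 1.83% to 3.53% of all genes lower and 1.93% to 3.65% higher. With no filter both genes missed the unadjusted threshold too, and Ndufa4l2 passed, higher in males (2.17% of members, against 3.46% of all genes). Ndufb5 also missed it without male 3, where 2 members were higher (4.35%, against 3.79% of all genes) and 3 lower (6.52%, against 4.01%).

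Ndufs8 was the only Fe-S subunit among the 11, at 240.4, 225 and 255 CPM in females and at 217, 186 and 184 CPM in males. Its log2 fold change was -0.30 ± 0.15 (edgeR, unadjusted p = 0.0675). Ndufb11 was at 512, 484 and 477 CPM in females and at 416, 400.4 and 426 CPM in males. The narrow spread within each sex set these values apart, and the log2 fold change was -0.25 ± 0.14. The other 7, named after their values were seen, were Ndufa2, Ndufa6, Ndufa11, Ndufb6, Ndufb7, Ndufb9 and Ndufb10, with edgeR unadjusted p-values from 0.0555 to 0.435. Of the 19 membrane arm genes 7 were among the 11, and of the 16 matrix arm genes 3, beside 7.13% of all genes. The arms had median log2 fold changes of -0.13 and -0.16, and their difference was not tested.

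The remaining Fe-S subunits overlapped between the sexes. Ndufv1 was at 428, 407 and 445 CPM in females and at 556, 567 and 389 CPM in males. Ndufs7 was at 366, 384 and 431 CPM in females and at 529.9, 319 and 276 CPM in males. For both, 1 or more males exceeded all females while another fell below them. Ndufv2 and Ndufs1 had log2 fold changes of -0.18 ± 0.15 and 0.08 ± 0.16. The medians were -0.07 for Fe-S subunits, -0.15 for other subunits and -0.05 for assembly factors.

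Ndufa1 was at 152, 124 and 113 CPM in females and at 63.0, 154 and 172 CPM in males. Male 1 lay below all other hearts and the other 2 males above the highest female, so the log2 fold change was 0.0003 ± 0.32. Ndufa4l2 had the highest log2 fold change, 0.61 ± 0.36, at 3.16, 3.18 and 2.14 CPM in females and 4.26, 6.66 and 2.38 CPM in males. Its unadjusted p of 0.110 (edgeR) did not pass. Among assembly factors the log2 fold changes lay between -0.19 and 0.07.

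KIKO-700 male 1 was more often at an end of the range than the other males over all genes: it was the highest of 6 libraries in 24.4% of genes and the lowest in 25.9%. Among the members it was the highest for 13 (28.3%) and the lowest for 8 (17.4%). Male 2 and male 3 were the lowest for 16 and 13 members (34.8% and 28.3%), and for 20.8% and 15.1% of all genes. Without male 1, 12 members were lower and 1, Ndufa1, was higher at an unadjusted p under 0.05, and Ndufv3, Ndufb5 and Ndufb2 passed an adjusted p of 0.05. In that fit 10.9% of all genes were higher and 10.4% lower without adjustment, and 864 passed with it (7.06%), against 8 with all libraries. The edgeR log2 fold changes of those 3 members were then -0.49, -0.45 and -0.42, with adjusted p-values of 0.0238, 0.0336 and 0.0483. Ndufb2, another subunit of the membrane arm, was named after its values were seen.

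The other nuclear complexes also had medians below 0 in males, -0.16 for complex III, -0.19 for complex IV and -0.14 for ATP synthase. In the same order, 7 of 9, 11 of 16 and 13 of 18 genes were below 0. Complex IV was mixed, with 3 genes higher and 2 lower at an edgeR unadjusted p under 0.05. Of all genes 3.39% were higher and 3.75% lower. In ATP synthase 0 genes were higher and 1 lower, and in complex III 0 passed. The 7 subunits encoded by mitochondrial DNA were all above 0, with a median of 0.17. Of these, mt-Nd4l had a log2 fold change of 0.65 ± 0.25 (edgeR, unadjusted p = 0.0226, adjusted p = 0.647). The share of counts from mitochondrial DNA was 31.2%, 37.1% and 37.2% in males and 33.4% to 33.8% in females, and its part in these values was not tested. Assembly genes without the Nduf name had a median of 0.03, with 5 of 10 below 0. The 4 adipocyte markers were lower in males without overlap, at 7.77 to 12.3 CPM against 28.95 to 40.8 CPM, and 2 of 6 macrophage markers were lower at an unadjusted p under 0.05; their part in the members' values was not tested.

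Reads at processed pseudogenes bear on several members. By sequence, 63 annotated pseudogenes resembled 25 members, and 38 of these had counts. They came to 60.1% of the counts of Ndufb4, 56.8% of those of Ndufs3, 25.0% for Ndufs5 and 16.6% for Ndufa12, beside the 74.3% for Ndufab1. How reads were shared between a gene and its copies is not given in the sources used here, so the levels of these members are uncertain. With these counts added to the parents, 4 members were higher in YG8-800 at an unadjusted p under 0.05 (8.7%, against 3.05% of all genes). In KIKO-700 males 2 were lower (4.35%, against 3.76%).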

How the data were processed

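The authors deposited raw read counts per Ensembl gene, 1 table per heart, from Lexogen QuantSeq 3′ libraries of 500 ng RNA. The study's methods name Rsubread, featureCounts and limma, whereas GRCm38.p6, HTSeq 0.6.1 and STAR 2.5.0a appear in the processing notes of the submitters. Which of these made the tables is unresolved. Removal of PCR copies by molecular identifiers is not stated. Of 54532 identifiers, 54409 (99.8%) matched a GENCODE M21 symbol.

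Groups came from the labels alone. In R 4.3.3, each experiment was fitted apart with edgeR 4.0.16 (filterByExpr, TMM, robust quasi-likelihood test, Benjamini-Hochberg adjustment over all genes tested, threshold 0.05), on libraries of 5226233 to 11650840 counts. All 46 members passed the filter in both fits. CPM are counts relative to the TMM-scaled library total, and fold changes are edgeR's. The code was tested on simulated data. Unadjusted p-values count genes because the study does so. Members, gene lists and tests were chosen with earlier results of these data known. Named members are the Fe-S subunits, up to 6 higher and 6 lower per comparison with the smallest unadjusted p under 0.05, the 3 most and 3 least abundant subunits and assembly factors, those on chromosome X, Ndufa4 and Ndufa4l2; exceptions are marked. Pseudogenes were assigned to a member at 85% identity over 50% of their length. Alternatives, given under the closing section, used limma 3.58.1, DESeq2 1.42.0, other scalings and filters, and left libraries out. Hearts of WT mice from the KIKO-700 cohort and of a further model were not analysed here, and items withheld for evaluation are not reported.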

Additional observations from a re-analysis of the deposited data

Results flagged for a closer look

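In groups of 4 hearts, 6 of 44 value sets of the named members held a heart far from the other 3 by Dixon's ratio. For a single set, chance gives about 1 in 20. The sets come from the same libraries and are not independent, so their number cannot be compared with that rate. The KIKO-700 groups of 3 were not examined. In WT, WT 4 was high for Ndufb5, with 849.5 CPM, and for Ndufaf3, with 35.6 CPM, and WT 3 was high for Ndufaf6, with 19.7 CPM. In YG8-800, YG8-800 2 was high for Ndufa4l2, with 3.34 CPM, and for Ndufaf6, with 16.5 CPM, and YG8-800 1 was low for Ndufv1, with 222 CPM. Their causes were not tested.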

How the results depend on the processing

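No member passed an adjusted p of 0.05 under any alternative except without KIKO-700 male 1, where 3 did. For YG8-800 against WT, 3 members passed an unadjusted p of 0.05, all higher (6.52%, against 3.04% of all genes higher). The count was 12 with no filter (26.1%, against 3.86%) and 6 with at least 10 counts in every library (13.3%, against 2.76%). It was 6 with DESeq2 (13.0%, against 3.58%) and 8 with limma-voom (17.4%, against 5.99%). With GC content smoothed out it was 6 (13.0%, against 4.27%), and without WT 2 and WT 3 it was 0 (against 2.96%). Leaving out single libraries gave 2 to 24 members, beside 1.86% to 8.90% of all genes higher and 2.09% to 4.91% lower. Medians were then 0.25 to 0.61, and 484 to 1695 genes passed without adjustment and 0 to 146 with it. With no filter 1727 genes passed without adjustment and 107 with it, and DESeq2 gave 7 with it. Members whose groups do not overlap numbered 0 to 19 higher and 0 to 1 lower when single libraries were left out (2.25% to 8.40% and 3.21% to 5.30% of all genes; the 19, without WT 4, stand beside 8.40%), and 2 higher and 1 lower without WT 2 and WT 3; smaller groups overlap less by construction.

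For KIKO-700 males against females, the 2 members past the unadjusted threshold became 0 with RLE or library size alone. Of all genes, 3.49% and 3.53% were then lower. The count was 1, Ndufb5 (2.17%), with DESeq2 (against 2.26% of all genes) or mitochondrial DNA and 4 Gm genes left out (against 3.63%). With no filter neither passed, and 1 other member, Ndufa4l2, was higher (0.62), or 2.17% against 3.46% of all genes. Single libraries left out gave 0 to 13 members unadjusted, beside 1.93% to 10.9% of all genes higher and 1.83% to 10.4% lower. After adjustment 0 to 3 members passed, and the medians were -0.17 to -0.10. Of all genes, 460 to 2610 passed unadjusted and 4 to 864 adjusted. Without overlap, 11 to 23 members were lower and 0 to 4 higher, beside 9.60% to 19.9% and 7.64% to 19.1% of all genes. The 23, without male 1, stand beside 19.9%. All genes past the thresholds numbered 1475 and 105 with no filter; after adjustment, 2 passed with at least 10 counts in every library and 18 with DESeq2.

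Correlations between same-numbered libraries were -0.23, 0.25, -0.03 and 0.13 in the first comparison and -0.16, -0.04 and -0.19 in the second. So few values cannot decide whether the numbers pair the hearts. With the replicate block in edgeR, 10 members (21.7%) passed the unadjusted threshold in YG8-800 against WT, all higher. Of all genes 599 were then higher and 268 lower (5.04% and 2.26%). In KIKO-700, 0 members passed with the block, beside 2.36% of all genes higher and 2.96% lower.

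Among the named members, signs turned only in those that had not passed the unadjusted threshold. In YG8-800 against WT they were Ndufaf3 (-0.12) and Ndufs7 (-0.057) without WT 2 and WT 3, Ndufaf6 (-0.067, library size alone; -0.059, Xist covariate), Ndufs3 (-0.061 and -0.075 in the same order) and Ndufaf8 (0.050, limma-voom; 0.062, replicate block; 0.090, without WT 2 and WT 3). Single libraries left out gave -0.079 to 0.36 for Ndufaf6, -0.24 to 0.26 for Ndufaf8, -0.094 to 0.16 for Ndufs3 and -0.20 to 0.16 for Ndufv1. In KIKO-700, Ndufa1 turned to -0.033 (library size alone), -0.12 (limma-voom) and -0.099 (replicate block), and Ndufs5 to -0.081 with pseudogenes added. Single libraries left out gave -0.26 to 0.33 for Ndufa1, -0.24 to 0.019 for Ndufa4, -0.042 to 0.078 for Ndufaf3, -0.085 to 0.20 for Ndufaf5, -0.15 to 0.15 for Ndufaf6, -0.18 to 0.099 for Ndufaf7, -0.29 to 0.060 for Ndufaf8, -0.0042 to 0.17 for Ndufs1 and -0.40 to 0.11 for Ndufs7. The causes were not tested. With 3 or 4 hearts a group, the standard errors limit what can be called.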
